A study of Mus musculus with 6 samples.

Results

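The genes described are the 3 peroxisome proliferator-activated receptors (Ppara, Ppard and Pparg), their partner receptor Rxra, the coactivators Ppargc1a and Ppargc1b, and 4 genes known to respond to these receptors (Vnn1, Vnn3, Mogat1 and Pank1). They were taken as every non-control array probe whose RefSeq accession named one of these genes, which gave 15 of the 56605 probes and 10 of the 22911 genes named on the array. All 10 genes were well above background on all 6 arrays and all 10 entered the test. The samples were livers of 6 male mice, 3 labelled LKO, with a liver-specific deletion of the fatty acid elongase gene Elovl6, and 3 controls titled Flox. The diet of both groups was rich in sucrose and lasted 14 days, and food was withdrawn for the last 4 hours. What drove the deletion, the age and strain of the mice, and whether the controls lacked the recombinase are not stated in the labels. Whole liver was used, so fewer cells of a type and less RNA per cell cannot be told apart.

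PPARs are nuclear receptors that bind DNA as pairs with an RXR receptor, at repeats of the half-site AGGTCA separated by a single base, and are switched on by fatty acids and their derivatives. PPAR alpha, the main form in hepatocytes, drives genes of fatty acid oxidation and ketone body synthesis in fasting. PPAR gamma is best known from fat cells and, when abundant in liver, for genes of fat storage, and PPAR delta is found in most tissues. PGC-1 alpha and PGC-1 beta, the products of Ppargc1a and Ppargc1b, are coactivators that bind these and other receptors and raise mitochondrial gene expression.

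RefSeq promoter windows of the build GRCm38.p6, 250 bases before an annotated start, were held for 8 of the 10 genes, in 12 windows. None was held for Vnn1 or Ppargc1b. The 3 printed here belong to genes whose control and LKO values did not overlap: Rxra (the more downstream of its annotated starts with a window, chr2:27709042-27709291, plus strand), Ppard (chr17:28232504-28232753, plus strand) and Mogat1 (chr1:78510810-78511059, plus strand). Capitals mark the half-site AGGTCA or its reverse complement TGACCT.
Rxra: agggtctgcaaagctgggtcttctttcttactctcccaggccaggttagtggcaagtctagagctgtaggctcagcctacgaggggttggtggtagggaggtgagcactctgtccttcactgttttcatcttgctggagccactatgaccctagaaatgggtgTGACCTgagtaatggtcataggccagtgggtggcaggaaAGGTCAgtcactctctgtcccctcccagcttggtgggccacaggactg
Ppard: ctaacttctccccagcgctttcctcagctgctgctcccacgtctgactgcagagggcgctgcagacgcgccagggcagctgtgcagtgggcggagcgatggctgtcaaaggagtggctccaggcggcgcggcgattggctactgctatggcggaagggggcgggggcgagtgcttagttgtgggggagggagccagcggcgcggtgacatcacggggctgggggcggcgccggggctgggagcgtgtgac
Mogat1: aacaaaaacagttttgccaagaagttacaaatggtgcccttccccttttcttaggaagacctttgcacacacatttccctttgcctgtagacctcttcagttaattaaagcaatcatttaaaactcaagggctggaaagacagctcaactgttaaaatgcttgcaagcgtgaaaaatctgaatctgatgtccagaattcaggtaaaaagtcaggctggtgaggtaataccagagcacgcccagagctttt

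The half-site AGGTCA, searched on both strands, was present in 14.0% of the 32851 windows of this length and in 3 of the 12 windows of these genes. Of those, 1 was the Rxra window above, with 2 matches, and the other 2 belonged to Pparg. The more upstream Rxra window (chr2:27676951-27677200), which is not printed, had 0 matches, so the 2 matches belong to only 1 of the annotated Rxra starts. The windows of Pank1, whose control and LKO values did not overlap either, are not printed and had 0 matches. The full repeat AGGTCANAGGTCA, which contains the half-site, occurred in 0.0335% of all windows. The looser form AGGNCANAGGNCA, which also covers the full repeat, occurred in 0.338%. Neither was found in a window of these genes, which says only that these letters are not in the 250 bases searched. A match is a description of the letters and not evidence of binding.

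In LKO livers 8 of the 10 genes had a lower mean than in controls, while 49.2% of the 14172 genes tested did, and the median log2 change was -0.35 over the 10 genes and 0.0031 over all genes. Of the 10 genes, 0 passed an adjusted p of 0.05 over all genes (limma, Benjamini-Hochberg), a threshold that 0.0141% of genes passed. At an unadjusted p under 0.05 there were 4 of the 10, namely Vnn1, Pank1, Rxra and Ppard, against 11.2% of all genes. Of these, 3 were lower in LKO (5.6% of all genes) and Rxra was higher (5.56% of all genes). Values of the control and LKO mice did not overlap for 5 of the 10, these 4 and Mogat1, against 17.3% of all genes. Of these 5, 4 were lower in LKO (9.21% of all genes) and Rxra was higher (8.11% of all genes). The genes were chosen with results of these arrays known, so these shares describe the 10 genes and do not test them. Elovl6 itself, the deleted gene, had signals of 21.3, 43.0 and 22.8 in controls and 0.228, 0.334 and 0.364 in LKO, so each mouse matched its label. These signals, like all those below, are multiples of the array's 75th percentile of the processed signal, a scale that permits comparison of mice for 1 probe but not of 1 probe with another.

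**Figure D1:**
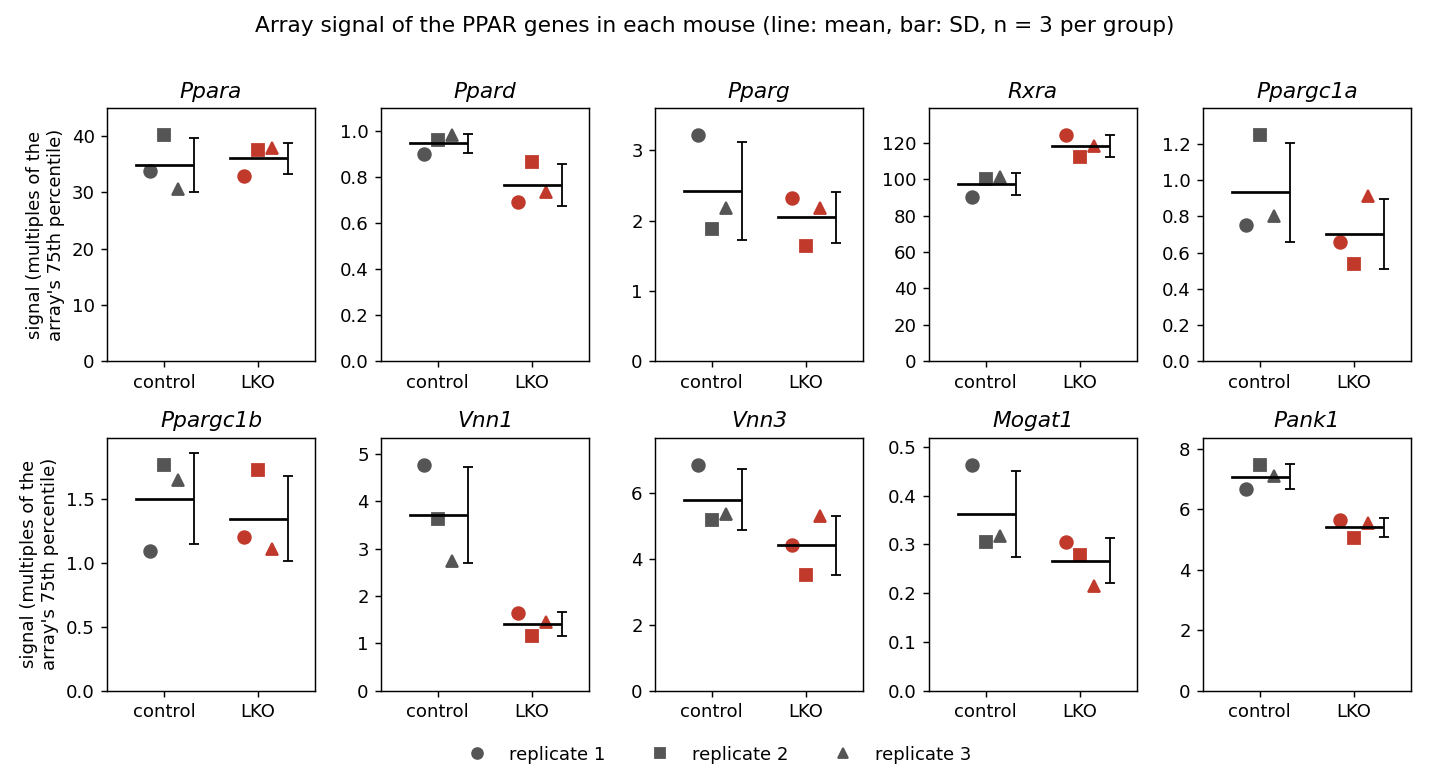
Signal of each gene in each mouse, as multiples of the array's 75th percentile (y axes start at 0 and differ between genes), for control (grey) and LKO (red) mice, with symbols for the replicate number, a line for the group mean and a bar for the SD (n = 3 per group). The LKO mice lie below all control mice for Ppard, Vnn1, Mogat1 and Pank1 and above them for Rxra, and the groups overlap for the other 5 genes.

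The receptors were measured first. Ppara, the PPAR alpha gene, had signals of 33.7, 40.1 and 30.7 in control mice 1 to 3 and of 32.8, 37.6 and 37.8 in LKO mice 1 to 3. The groups overlapped, with the lowest and the highest value of all in controls 3 and 2. The mean was 34.8 ± 4.83 in controls and 36.1 ± 2.79 in LKO (SD, n = 3 each), and the log2 change was 0.06 ± 0.12 (SE, limma adjusted p = 0.902), with a 95% interval from -0.24 to 0.35. Without control 3 it was -0.032. The second Ppara probe had a log2 change of 0.15 ± 0.13 (SE), in the same direction.

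Ppard, the PPAR delta gene, had signals of 0.901, 0.959 and 0.981 in controls and of 0.691, 0.866 and 0.736 in LKO. Every LKO mouse was below every control, with LKO 2 the closest. The LKO mean was 1.24-fold below that of controls, a log2 change of -0.31 ± 0.11 (SE, n = 3 per group, limma adjusted p = 0.373). The exact two-sided permutation test gave p = 0.1, the smallest that 3 mice against 3 allow. In the authors' value table, which scales each array differently, the groups overlapped.

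Pparg, the PPAR gamma gene, had signals of 3.21, 1.88 and 2.17 in controls and of 2.32, 1.63 and 2.19 in LKO. Control 1 stood above the other 5 mice, which overlapped. Pparg had a log2 change of -0.22 ± 0.23 (SE, limma adjusted p = 0.761), with a 95% interval from -0.76 to 0.32. It was 0.00054 without control 1, -0.068 without LKO 2 and -0.39 without control 2. With the column of the slide as a term in the fit it was -0.027. Only LKO 1 shared a slide column with the controls, so that fit, here and below, sets only LKO 1 against the controls. The lower LKO mean of Pparg thus rested on single mice.

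Rxra encodes retinoid X receptor alpha, the obligate DNA-binding partner of the PPARs and of several other receptors. Its signals were 90.2, 99.97 and 101 in controls and 124, 112 and 118 in LKO. All 3 LKO mice were above all 3 controls, and it was the only gene of the 10 with groups apart and the higher values in LKO. Rxra had a log2 change of 0.28 ± 0.09 (SE, n = 3 per group, limma adjusted p = 0.341), or 1.22-fold higher, with a 95% interval from 0.07 to 0.50. Its second probe gave signals of 0.566, 0.572 and 0.630 in controls and 0.718, 0.658 and 0.670 in LKO. There too the groups did not overlap, and the log2 change was 0.21 ± 0.09 (SE).

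For the coactivator genes the groups overlapped. Ppargc1a, which encodes PGC-1 alpha and is raised in liver by fasting, had signals of 0.75, 1.25 and 0.803 in controls and of 0.660, 0.536 and 0.914 in LKO. LKO 3 lay above controls 1 and 3, and control 2 was the highest of all. Its log2 change was -0.41 ± 0.26 (SE, limma adjusted p = 0.614), with a 95% interval from -1.02 to 0.21, and it was -0.18 without control 2, -0.23 without LKO 2 and -0.61 without LKO 3. The second Ppargc1a probe had a log2 change of -0.42 ± 0.26 (SE).

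Ppargc1b, which encodes PGC-1 beta, a coactivator also known to act with SREBP factors in fat synthesis, had signals of 1.09, 1.76 and 1.64 in controls and of 1.20, 1.73 and 1.11 in LKO. In each group there were low and high mice, and the groups overlapped almost wholly. Its log2 change was -0.15 ± 0.24 (SE, limma adjusted p = 0.851), and -0.03 ± 0.20 (SE) at a second probe that carries a predicted RefSeq transcript accession. The 95% interval ran from -0.72 to 0.41, and with a mouse left out the estimate lay between -0.37 (without control 1) and -0.023 (without control 2), every mouse moving it by over 1.5 times.

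Vnn1 differed most of the 10 genes. It encodes vanin-1, a membrane-anchored pantetheinase that splits pantetheine into pantothenate and cysteamine, and is an established PPAR alpha target in liver. Its signals were 4.77, 3.63 and 2.74 in controls and 1.64, 1.15 and 1.44 in LKO. The gap between the lowest control and the highest LKO mouse was wide, and the controls were spread more than the LKO mice. The mean was 3.71 ± 1.02 in controls and 1.41 ± 0.249 in LKO (SD, n = 3 each). The log2 change was -1.38 ± 0.23 (SE, limma adjusted p = 0.162), with a 95% interval from -1.91 to -0.84, and the gene ranked 45 of 14172 by p. With each mouse left out in turn the log2 change lay between -1.58 and -1.18. On the slide, the controls and LKO 1 lay in column 1 and LKO 2 and 3 in column 2. With slide column as a term, added after the data were seen, Vnn1 was at -1.14, which is LKO 1 alone against the controls.

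Vnn3, a second pantetheinase gene that lies next to Vnn1 with no other gene of the RefSeq table between them, had signals of 6.86, 5.20 and 5.36 in controls and of 4.43, 3.51 and 5.31 in LKO. Control 1 was the highest, and LKO 3 lay between controls 2 and 3, so the groups overlapped. Vnn3 had a log2 change of -0.40 ± 0.18 (SE, limma adjusted p = 0.479), and of -0.25 without LKO 2. With median scaling and in the authors' table its groups did not overlap. The 2 vanin genes were also compared within each array, as the log2 signal of Vnn1 minus that of Vnn3. That difference was -0.52, -0.52 and -0.97 in controls and -1.43, -1.62 and -1.88 in LKO, without overlap, and LKO minus control was -0.97 on the log2 scale (exact two-sided permutation p = 0.1, the smallest possible, and 0.25 adjusted over the 5 pairs compared). The same comparison of Ppara with Ppard gave a shift of 0.37 (exact permutation p = 0.1, adjusted 0.25). Ppara with Pparg, Ppard with Pparg, and Ppargc1a with Ppargc1b gave shifts of 0.28, -0.09 and -0.25 with overlapping groups (exact permutation p from 0.4 to 1). These pairs were chosen after the values were seen, and whether the vanin probes cross-hybridise was not tested.

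Mogat1 encodes a monoacylglycerol acyltransferase, which makes diacylglycerol and responds to PPAR gamma in fatty liver. Its signals were 0.463, 0.306 and 0.317 in controls and 0.305, 0.278 and 0.215 in LKO. The groups did not overlap, but LKO 1 was almost level with control 2, and control 1 stood well above the others. Mogat1 had a log2 change of -0.43 ± 0.20 (SE, limma adjusted p = 0.496), and of -0.24 without control 1, -0.29 without LKO 3, -0.20 with normexp and -0.22 with slide column as a term. The groups overlapped with normexp background correction and in the authors' value table. A second Mogat1 probe was well above background on 0 of the 6 arrays.

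Pank1 encodes a pantothenate kinase, the first and rate-limiting step of coenzyme A synthesis from the pantothenate that vanins release, and it is a PPAR alpha target. Its signals were 6.65, 7.46 and 7.11 in controls and 5.65, 5.05 and 5.53 in LKO. The mice of each group were close together and the groups were clearly apart. The mean was 7.08 ± 0.407 in controls and 5.41 ± 0.314 in LKO (SD, n = 3 each). Its log2 change was -0.39 ± 0.09 (SE, limma adjusted p = 0.243), or 1.31-fold lower, with a 95% interval from -0.60 to -0.17.

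**Figure D2:**
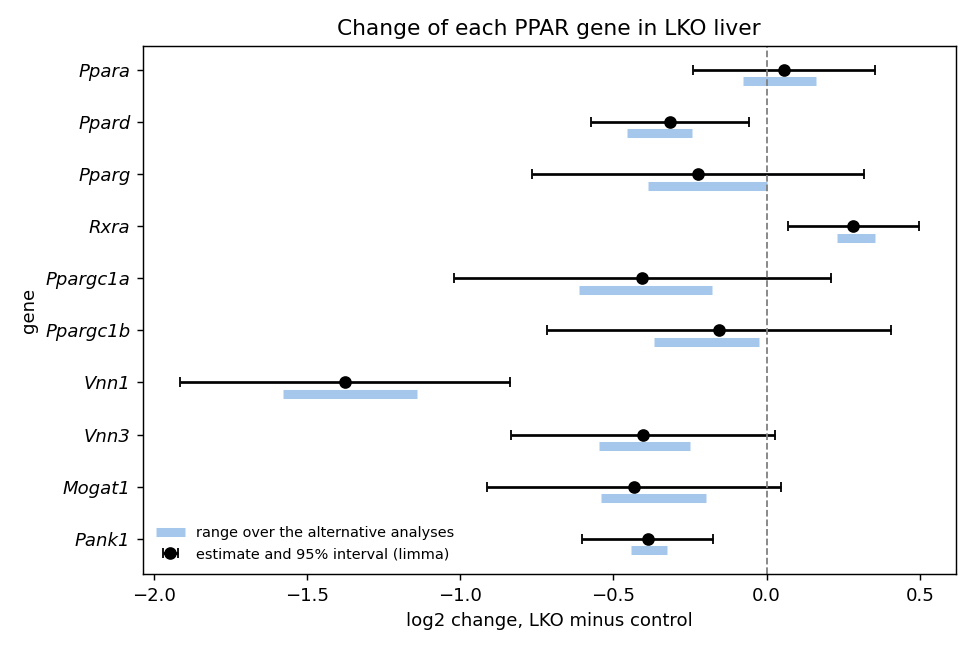
Log2 change of each gene, LKO minus control, with the limma estimate and its 95% interval (black) and the range of the estimate over the 16 alternative analyses (blue). The intervals of Vnn1 (-1.91 to -0.84), Pank1, Ppard and Rxra exclude 0 before adjustment over all genes, and the blue ranges of Ppara and Pparg reach across 0.

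Within groups the mice did not keep 1 order across the genes. Control 1 had the highest control value for Pparg, Vnn1, Vnn3 and Mogat1, and control 2 for Ppara, Ppargc1a, Ppargc1b and Pank1. Among LKO mice, LKO 2 was the lowest for 6 of the 10 genes and LKO 1 was the highest for 5. Measured against the control mean, 9 of the 10 genes were lower in LKO 1 and 7 were lower in each of LKO 2 and LKO 3. In controls 1 to 3 themselves, 6, 3 and 6 of the 10 lay below that mean. The same share over all genes was not taken for single mice. Among 13261 other genes, those with the most similar pattern over the 6 arrays were sought. Likeness was the root mean square difference of log2 values after each gene's own mean was removed. The group difference is part of such a pattern, and so large a search finds near ones in any case. For Vnn1 the nearest genes were Hmgcs1 (0.193), Nsdhl (0.213) and Pltp (0.218), against a spread of Vnn1 itself of 0.742. The log2 changes of these genes were -1.27, -1.12 and -1.33. For Pparg the nearest genes were Clk1 (0.0677), Abcc3 (0.0824) and Gstm1 (0.0902), against its spread of 0.30. For Mogat1 they were Acat1 (0.0846), Zxdb (0.105) and Leo1 (0.106), against its spread of 0.325.

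Other genes of the pathway were read from lists. Of 43 PPAR alpha targets tested, 34 had lower and 9 higher means in LKO, while 49.2% of all genes tested had lower means. The median log2 change was -0.20. For each mouse, the median distance of these targets from their control means was also taken (log2). It was 0.18, -0.03 and -0.16 in controls 1 to 3 and -0.09, -0.18 and -0.24 in LKO 1 to 3. Control 3 lay below LKO 1, so the groups overlapped. Over all genes 0 passed (limma, adjusted p of 0.05), whereas 6 lower and 2 higher ones had an unadjusted p under 0.05, against 5.6% and 5.56% of all genes. The groups did not overlap for 10 of the 43, 7 lower and 3 higher, against 17.3% of all genes. The median log2 change was -0.083 without control 1, -0.13 without LKO 3 and -0.29 without control 3. Pdk4, the kinase that shuts off pyruvate dehydrogenase, had signals of 1.51, 1.48 and 1.18 in controls and 0.454, 0.488 and 0.664 in LKO. Its log2 change of -1.39 ± 0.17 (SE, limma adjusted p = 0.100) was of the size of that of Vnn1. Pdk4 passed with normexp (adjusted p = 0.0422) and with trend and robust eBayes (adjusted p = 0.0484), which no gene of the 10 did.

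Acot2 and Acot3, acyl-CoA thioesterases of a cluster of near-identical genes whose signals may not be separate, had log2 changes of -0.59 ± 0.13 and -0.64 ± 0.16 (SE, limma adjusted p = 0.233 and 0.255). In both, all LKO mice were below all controls, and with normexp Acot3 was at -0.26. Further targets were picked after their values were seen to show the range within the list. Cyp4a10, a fatty acid omega-hydroxylase from a family of similar genes, had a log2 change of -1.02 ± 0.31 and Fgf21, a hormone secreted by the fasted liver, one of -0.80 ± 0.38 (SE). Cpt1a, the gate of mitochondrial oxidation, was at 0.13 ± 0.13 (SE). Creb3l3 and Acaa1a were at 0.28 ± 0.10 and 0.27 ± 0.10 (SE), so the list held values on both sides of 0.

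Of 16 PPAR gamma targets tested, 14 had lower means, against 49.2% of all genes, and the median log2 change was -0.35. The median distance from the control means was 0.20, -0.16 and 0.13 in controls 1 to 3 (log2). In LKO 1 to 3 it was -0.12, -0.30 and -0.54, so control 2 lay below LKO 1 and the groups overlapped. Here 0 passed over all genes (limma), with 3 lower and 0 higher at an unadjusted p under 0.05, against 5.6% and 5.56% of all genes. Groups did not overlap for 3 of the 16, all lower, a share near the 17.3% of all genes. The median log2 change was -0.62 without control 2. Of the 14 with lower means, Vldlr and Cidea were tested only because they were well above background in all controls. Cidea was so in 1 of the 3 LKO mice. With genes well above background on all 6 arrays, 12 had lower means and the median was -0.26. Vldlr, the very low density lipoprotein receptor, had signals of 0.266, 0.205 and 0.350 in controls and 0.0966, 0.0640 and 0.134 in LKO, where it was well above background in 2 of the 3 mice. Cd36, a fatty acid translocase, had 1.30, 1.02 and 1.38 in controls and 0.761, 0.810 and 0.843 in LKO. In both the groups were apart, at log2 changes of -1.51 ± 0.30 and -0.61 ± 0.13 (SE, limma adjusted p = 0.199 and 0.215). With normexp, Vldlr was at -0.51. Agpat2, an acyltransferase of glycerolipid synthesis, was at -0.30 ± 0.12 (SE, limma adjusted p = 0.434), and at -0.063 with slide column as a term. Pck1 and Aqp7, named after their values were seen as the 2 with higher means, were at 0.50 ± 0.36 and 0.34 ± 0.16 (SE).

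Genes that share a role with the partner receptor and the coactivators were centred near the median of all genes. Of 12 RXR isoforms and RXR partner receptors tested, 6 were lower and 6 higher and the median was -0.0091 (log2). Here 0 passed over all genes (limma), with 3 lower and 1 higher at an unadjusted p under 0.05, against 5.6% and 5.56% of all genes. Groups did not overlap for 5 of the 12, 3 lower and 2 higher, against 17.3% of all genes. Rarb (retinoic acid receptor beta) was at -0.40 ± 0.12, Thrb (thyroid hormone receptor beta) at -0.30 ± 0.11 and Nr1i2 (the xenobiotic receptor PXR) at 0.29 ± 0.12 (SE), each with groups apart. With the mean of a gene's probes Rarb was at -0.10 and Thrb at -0.18. Thrb was at -0.19 without LKO 2 and -0.16 with slide column as a term, and Nr1i2 at 0.19 without LKO 3. Of 20 coactivators and corepressors, 9 were lower and 11 higher with a median of 0.021. Over all genes 0 passed, and 0 had an unadjusted p under 0.05 (limma), which 11.2% of all genes had. Groups did not overlap for 1 of the 20, against 17.3% of all genes. The member closest to the PGC-1 genes, Pprc1, was at 0.33 ± 0.23, and Lpin1, a phosphatidate phosphatase that also coactivates PPAR alpha, at -0.51 ± 0.24 (SE). Ep300, a histone acetyltransferase, was at 0.23 ± 0.13 (SE). Pprc1 was at 0.14 without LKO 1, 0.53 without control 1 and 0.72 with slide column as a term. Lpin1 was at -0.32 without LKO 2, and Ep300 at 0.13 without control 1 and 0.14 without LKO 3.

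Among 14 PGC-1 partner factors and targets, 7 were lower and 7 higher, the median was 0.0032 and 0 passed over all genes, with 1 at an unadjusted p under 0.05 (limma), against 11.2% of all genes. Groups did not overlap for 1 of the 14, against 17.3% of all genes. Cycs, the cytochrome c gene, was at -0.25 ± 0.09 with groups apart, G6pc, the last enzyme of glucose production, at -1.18 ± 0.50 and Esrrg, an orphan receptor, at -0.61 ± 0.30 (SE), the last 2 with overlapping groups. G6pc was at -0.65 without LKO 2 and -0.59 with slide column as a term, and Esrrg at -0.33 without control 1 and -0.14 with normexp.

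Coenzyme A genes stand beside Pank1 and the vanins. Of 16 tested, 10 were lower and 6 higher, the median log2 change was -0.046 and 0 passed over all genes, with 1 at an unadjusted p under 0.05 (limma), against 11.2% of all genes. Groups did not overlap for 2 of the 16, both lower, against 17.3% of all genes. The gene with the unadjusted p under 0.05 was Pank3, a second pantothenate kinase, with signals of 11.4, 11.1 and 10.5 in controls and 9.08, 8.15 and 8.92 in LKO and a log2 change of -0.34 ± 0.09 (SE, limma adjusted p = 0.267). All its LKO mice were below all controls. Pank2 and Pank4, chosen after their values were seen, were at -0.0070 ± 0.15 and -0.03 ± 0.07 (SE). Nudt19, which breaks coenzyme A down in peroxisomes, was at -0.24 ± 0.10 with groups apart, and Fmo1, which oxidises the hypotaurine made from cysteamine, at -0.30 ± 0.13 (SE), and at -0.10 with slide column as a term. Beside Mogat1, all 3 related acyltransferases tested had lower means, as did 49.2% of all genes. None passed over all genes (limma, 0) or had an unadjusted p under 0.05 (0, against 11.2% of all genes). Dgat2 was at -0.14 ± 0.09, Mogat2 at -0.26 ± 0.18 and Dgat1 at -0.11 ± 0.08 (SE). Without control 2 Mogat2 was at -0.087, without control 1 at -0.43 and with normexp at -0.13. Dgat2 was at -0.087 without LKO 3 and -0.066 with slide column as a term. Dgat1 was at -0.069 without LKO 2, -0.043 with slide column as a term and -0.16 with median scaling.

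**Figure D3:**
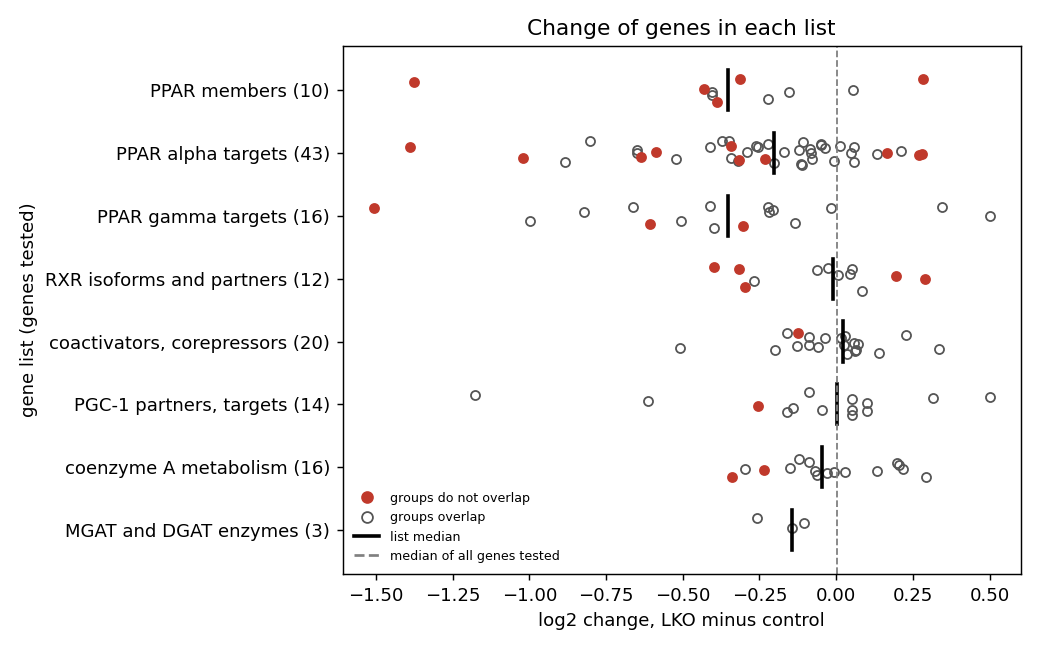
Log2 change (LKO minus control) of every tested gene of the 10 described and of the 7 pathway lists, 1 point per gene, filled red where control and LKO mice did not overlap, with the list median (black) and the median of all genes tested (dashed). Most PPAR alpha (34 of 43) and PPAR gamma (14 of 16) targets lie left of 0, against 49.2% of all genes tested. Taken per mouse, the medians of these 2 lists overlapped between the groups. The receptor, coactivator and PGC-1 lists are centred near 0.

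Markers of liver cell types were read beside these values. All 10 hepatocyte markers were measured, with a summed signal of 4937 to 5086 in controls and 5153 to 5444 in LKO, so the tissue label was borne out. All 12 Kupffer cell and macrophage markers had higher means in LKO, while 49.2% of all genes had lower ones. Groups did not overlap for 2 of the 12, against 17.3% of all genes. The median distance of these markers from their control means was -0.04, 0.25 and -0.21 in controls 1 to 3 (log2). In LKO 1 to 3 it was 0.08, 0.21 and 0.34, so control 2 lay above LKO 1 and LKO 2. The summed signal was 93.2 to 128 in controls and 115 to 138 in LKO, with 0 markers at background throughout. Of the 7 neutrophil markers on the array, 4 were tested and 3 of those had higher means, the sums were 61.3 to 73.4 and 67.2 to 81.0, and Mpo, Ngp and Cxcr2 were above background on no array. Those 3 were S100a8 (2.43 ± 0.61), S100a9 (2.21 ± 0.59) and Retnlg (1.23 ± 0.33), given as log2 change and SE. Each had groups apart, as had 17.3% of all genes, and none was past the adjusted threshold. The other marker tested, Csf3r, was at -0.04 ± 0.10 (SE) with overlapping groups. Of 7 adipocyte markers, 4 were tested, 2 lower and 2 higher, with sums of 5.60 to 11.1 and 5.41 to 6.85. The sums were 16.2 to 18.7 and 16.3 to 18.7 for endothelial, 5.70 to 6.98 and 6.55 to 7.41 for stellate cell, and 5.09 to 6.21 and 4.83 to 8.62 for bile duct markers. A sum follows its brightest probes. Means were lower in LKO for 4 of 7 endothelial, 4 of 6 stellate cell and 2 of 4 bile duct markers tested, against 49.2% of all genes. In each of these lists groups did not overlap for 1 marker, which was lower in LKO, against 17.3% of all genes. For lymphocyte markers, with Cd8a and Cd79a at background throughout, the sums were 59.4 to 83.4 and 64.7 to 77.7, and for skeletal muscle markers 0.749 to 8.35 and 0.612 to 0.682. Of 7 lymphocyte markers tested, 4 had lower means. Groups did not overlap for 2 of the 7, 1 lower and 1 higher, against 17.3% of all genes. The 2 muscle markers tested had lower means, with groups apart for 1. The median distance of the 2 tested muscle markers from their control means was 1.64 in control 3 (log2), against -0.91 and -0.74 in controls 1 and 2. The part of other cell types in the values of Pparg, Ppard, Vnn1 and Mogat1 was not tested.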

How the data were processed

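Liver RNA of 3 control and 3 LKO mice was labelled with Cy3 from 0.1 µg and read on 1 one-colour Agilent array per mouse, per the labels' protocols. Scanner output came from Agilent Feature Extraction 11.5.1.1, per the submitters' processing notes. Per the file headers, its processed signal is a background-corrected intensity; the spot and local background signals used for the normexp alternative are uncorrected intensities. The deposited quality flags are other values, 0 or 1, set by that software. The authors' value table is a linear intensity, the processed signal times 1 constant per array between 2.08 and 2.48 (relative deviation at most 4.99e-10), with column medians of 55.3, 62.9 and 61.5 in controls and 63.7, 59.1 and 62.2 in LKO. It is not centred, and the choice of constants is not stated in the labels. It had 0 columns without a sample.

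Control spots and outlier spots (64 to 111 per array) were left out and spots of a probe averaged. The analysed value was log2 of the processed signal minus log2 of the array's 75th percentile (265 to 298). The 6 arrays shared 1 slide and 1 scan; 52.1% to 56.6% of 59305 spots were well above background, and 0 were saturated. Accessions were matched without version to a RefSeq table of GRCm38.p6; 32994 probes (58.3%) had 1 symbol, 0 several and 23611 none. The array header names an earlier build, so only the promoter windows carry coordinates.

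The probe with the highest mean stood for a gene, and 14172 genes were tested, those well above background throughout the control or the LKO arrays. The two-sided test was limma 3.58.1 (lmFit, eBayes; R 4.3.3), its p-values adjusted by Benjamini-Hochberg over these genes and called at 0.05. Where nothing says that mice were handled independently, p-values measure only the spread between these samples. Single values also had an exact permutation test (scipy 1.17.1). The fit was also run on simulated data with 200 changed genes. Those genes were independent of each other, unlike real genes, and no result here rests on that run. No set test was run.

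The members and lists (7 pathway lists, 9 marker lists) were chosen with earlier results of these data known. Named were all 10 members, Elovl6, from each pathway list up to 4 genes past the threshold or otherwise the 3 with the smallest p, and for Vnn1, Pparg and Mogat1 the 3 genes of most similar pattern, predicted names left out. Genes outside this rule are marked as chosen after their values were seen. Alternatives were other scalings, background correction, the authors' table, other filters, the variance model, the mean of a gene's probes, a replicate block, each mouse left out and, added after the data were seen, the slide column.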

Additional observations from a re-analysis of the deposited data

How the results depend on the processing

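For the 10 genes, 16 alternatives gave 160 values, of which 0 passed the adjusted threshold and 157 kept their sign. The exceptions were Pparg without control replicate 1 (0.00054) and Ppara without control replicate 3 (-0.032) and under adjustment for slide column (-0.076), a fit added after the data were seen that sets only LKO 1 against the controls. With a mouse left out, Ppara ranged from -0.032 to 0.16 and Pparg from -0.39 to 0.00054. The count of these genes with groups apart ranged from 4 to 7, and the count with a lower mean from 7 to 9. Over all genes, the count past the threshold was 16 with normexp, 13 with trend and robust eBayes, 1 without a filter, 1 with all 6 arrays above background, 1 with the slide column and 1 to 15 with a mouse left out, 15 without LKO replicate 1 and 4 without control replicate 1. The replicate numbers gave no sign of pairs: same-numbered mice correlated at 0.0449, -0.0546 and -0.0701. Differently numbered mice correlated between -0.113 and 0.163. With 3 mice per group this check cannot exclude pairing. The fit with the replicate block called 3 genes, none of the 10, with adjusted p = 0.208 for Vnn1 (limma). All arrays lay on 1 slide, so a slide block was not run. Median scaling moved list medians to -0.063 (RXR partners), -0.033 (coactivators), -0.050 (PGC-1), -0.099 (coenzyme A) and -0.20 (acyltransferases). It moved the median of all genes as well, from 0.0031 to -0.050, so these lists moved together with all genes. The PGC-1 median was -0.045 with normexp, -0.031 with the mean of a gene's probes and -0.097 with the slide column. With the slide column the PPAR gamma, RXR partner and acyltransferase medians were -0.12, -0.063 and -0.066. With a mouse left out the medians ranged from -0.62 to -0.28 (PPAR gamma), -0.071 to 0.013 (RXR partners), -0.057 to 0.025 (coactivators), -0.059 to -0.010 (PGC-1) and -0.18 to -0.090 (acyltransferases). The cause of the other shifts was not tested. The number of arrays limits the precision.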
